A study of Mus musculus with 24 samples.

Results

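The 8 genes described here, *Rb1cc1*, *Ulk1*, *Becn1*, *Wipi1*, *Map1lc3a*, *Map1lc3b*, *Gabarapl1* and *Sqstm1*, encode parts of the autophagy machinery and were taken by symbol from a table of 49315 genes. They were chosen with earlier results of these data known, so counts set beside all genes are a description, not an independent check. All 8 had enough reads to be tested, as did 16070 genes in all. Of these, 7 rose with PROTAC FAK degrader 1, where 34.1% of all tested genes were higher, and *Sqstm1* stood at 3.38-fold its DMSO level. With defactinib 3 of them fell and 0 rose, where 11.0% of all genes were lower and 11.4% higher. *Rb1cc1*, which encodes a scaffold that binds FAK, rose clearly with PROTAC FAK degrader 1 and, less securely, with VS-4718.

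Autophagy is the pathway by which a cell wraps part of its cytoplasm in a double membrane and delivers it to the lysosome. A kinase complex built on the scaffold FIP200, the product of *Rb1cc1*, starts the membrane, a lipid kinase complex that contains Beclin 1 marks it, and small ubiquitin-like proteins of the LC3 and GABARAP families are attached to it and hold cargo receptors such as p62, the product of *Sqstm1*. FIP200 was first described as a protein that binds the kinases FAK and PYK2 and lowers their activity. In Schwann cells autophagy is known for its part in breaking down myelin after nerve injury. Transcript levels do not measure autophagic flux, which also depends on how fast the proteins are consumed.

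RNA was sequenced from MS03, a mouse *Nf2*-/- Schwann cell line, to set the effects of drugs against FAK side by side with those of vehicle. The line was grown in DMEM with 10% FBS, so every group shares the genotype, the serum and the DMSO vehicle, and it stands for 1 cell line only. DMSO alone was compared with 4 inhibitors of the kinase, namely defactinib, VS-4718, GSK2256098 and IN10018 (ifebemtinib), each at 1 μM, and with 3 proteolysis-targeting chimeras (PROTACs), molecules that couple a target ligand to a ubiquitin ligase ligand so that the target is degraded. Of the PROTACs, PROTAC FAK degrader 1 was given at 1 μM, and GSK215 and BSJ-04-0146 at 0.1 μM. All treatments lasted 24 h and each group held 3 libraries, labelled as biological replicates, which gives 24 libraries in 8 groups. The labels do not say how the replicates were cultured, so that p-values measure the spread between these samples.

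The libraries held 14472462 to 27449516 counts each (median 22606532.5), and no 2 replicates agreed within sampling noise (chi-square over its degrees of freedom, 1.74 to 8.81). *Ptk2*, which encodes FAK, averaged 77.9 to 97.7 CPM across the groups, whereas *Ptk2b*, which encodes PYK2, had 0 to 4 counts per library and was not tested. CPM are a gene's counts scaled to a common library total that was adjusted by the trimmed mean of M values (TMM). By edgeR's quasi-likelihood test *Ptk2* fell with 5 of the 7 drugs, by 0.29 on the log2 scale with GSK215, 0.26 with BSJ-04-0146, 0.18 with VS-4718, 0.14 with defactinib and 0.13 with GSK2256098 (adjusted p at most 0.0101), the last not past the threshold without DMSO replicate 3 (-0.12) or GSK2256098 replicate 2 (-0.11). It differed by -0.072 with IN10018 and 0.034 with PROTAC FAK degrader 1, short of the threshold, although library totals in place of TMM, the default scaling, put it higher with the latter (0.12). *Nf2* fell by 0.19 with GSK215 and by 0.14 with BSJ-04-0146, with no call for either under library totals (-0.072 and -0.029), and its differences with the other 5 drugs, -0.024 to 0.063, did not pass, except that VS-4718 had a call under library totals (0.10). The drugs act on the protein, so neither kinase transcript checks their action, and the 2360 to 5066 counts of *Nf2* per library do not show whether exons are deleted. Of 10 Schwann cell markers 6 reached a mean of 1 CPM, and *S100b*, *Egr2* and *Gap43* were among those that did not. Their summed level was 54.2 to 55.8 CPM with DMSO, 58.7 to 62.8 with IN10018, 56.7 to 60.6 with PROTAC FAK degrader 1, 79.1 to 84.3 with defactinib, 77.4 to 79.7 with GSK2256098, 122 to 134 with VS-4718, 270 to 276 with GSK215 and 244 to 268 with BSJ-04-0146. Of 5 macrophage markers only *Cd68*, which encodes a protein of lysosomes, reached 1 CPM, and *Ptprc* and *Adgre1* averaged 0.0042 and 0.0019 CPM. The macrophage sum was 3.48 to 4.00 CPM with DMSO, 10.8 to 11.7 CPM with PROTAC FAK degrader 1, 7.66 to 9.04 CPM with BSJ-04-0146, 5.93 to 7.62 CPM with GSK215, 4.82 to 6.06 CPM with VS-4718, 4.36 to 5.05 CPM with defactinib, 4.03 to 4.15 CPM with GSK2256098 and 3.61 to 4.34 CPM with IN10018. Of 5 fibroblast markers 3 reached 1 CPM and *Dcn* and *Lum* did not; their sum was 1732 to 1776 CPM with DMSO, 994 to 1008 CPM with PROTAC FAK degrader 1, 1334 to 1410.2 CPM with BSJ-04-0146, 1631 to 1684 CPM with GSK215, 1516 to 1585 CPM with VS-4718, 1581 to 1648 CPM with IN10018, 1767 to 1824 CPM with defactinib and 1761 to 1815 CPM with GSK2256098. Of 4 endothelial markers 0 reached 1 CPM, and of 4 neuron markers 1 did. The neuron sum was 2.76 to 3.05 CPM with DMSO, 4.11 to 4.90 with VS-4718, 3.90 to 5.25 with GSK215 and 3.19 to 5.25 with BSJ-04-0146. It was 3.22 to 4.57 CPM with PROTAC FAK degrader 1, and defactinib (2.70 to 3.91), GSK2256098 (3.04 to 3.66) and IN10018 (2.41 to 4.56) overlapped DMSO. The part of these shifts in the results was not tested, and in bulk RNA fewer cells of a type and less RNA per cell cannot be told apart.

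Levels were compared between genes as CPM per kilobase of exon. With DMSO, *Sqstm1* stood highest at 105 ± 2.98 CPM per kb (SD, n = 3), followed by *Gabarapl1* at 29.1 ± 1.64, *Becn1* at 15.2 ± 0.70, *Map1lc3a* at 14.0 ± 0.69 and *Wipi1* at 10.4 ± 0.20. *Map1lc3b* had 7.71 ± 0.18 CPM per kb. *Ulk1* at 4.11 ± 0.049 and *Rb1cc1* at 4.10 ± 0.16 did not differ beyond their spread. With the length of the longest transcript in place of all exon bases, *Map1lc3b* (14.0 CPM per kb) passed *Wipi1* (13.7), and *Rb1cc1* (7.92) passed *Ulk1* (5.12), whereas the first 4 kept their order. All CPM values, above and below, are scaled by TMM. A gene is said to rise or fall where edgeR's quasi-likelihood test gave a Benjamini-Hochberg adjusted p under 0.05 over all 16070 genes.

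**Figure D1:**
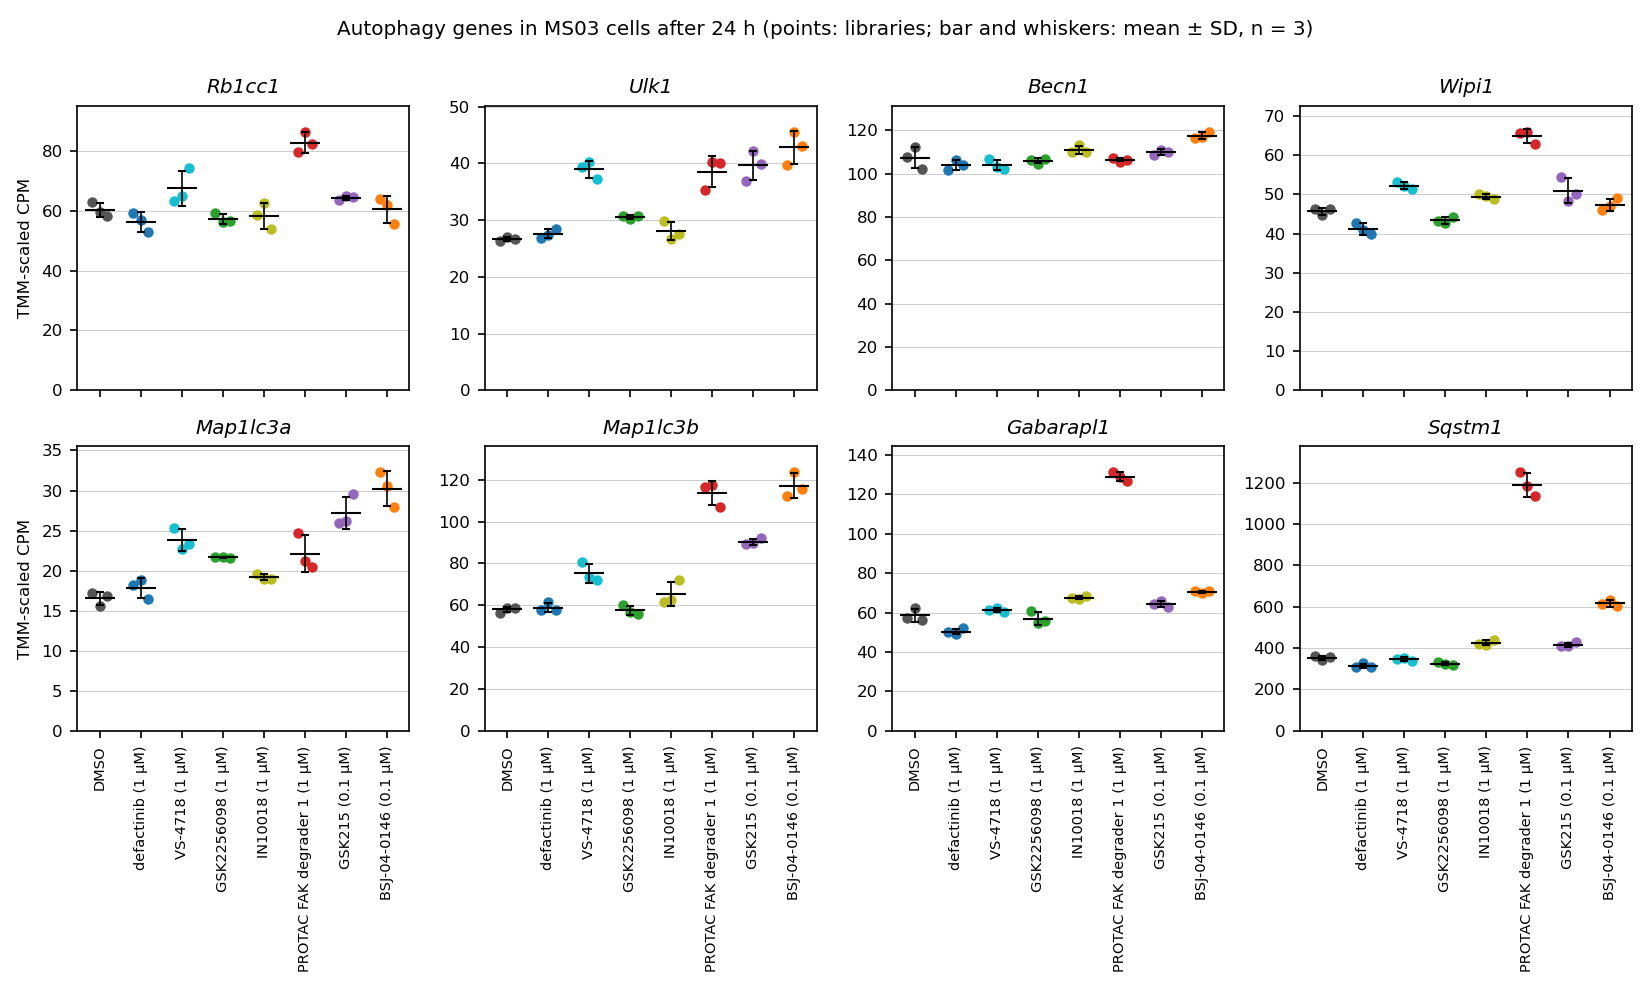
TMM-scaled CPM (vertical axes from 0, one scale per gene) of the 8 genes in each of the 24 libraries by treatment, with bars for the mean and whiskers for the SD of 3 libraries. With PROTAC FAK degrader 1 the *Sqstm1* libraries sit between 1137 and 1252 CPM, while the *Becn1* means stay between 104 and 118 CPM in all 8 groups.

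*Rb1cc1* (ENSMUSG00000025907; GRCm38 chr1:6206197-6276648, plus strand) encodes the scaffold of the initiation kinase complex. Its 3 DMSO libraries had 62.9, 59.5 and 58.3 CPM. The VS-4718 libraries had 63.3, 64.9 and 74.1 CPM and those with PROTAC FAK degrader 1 had 79.4, 86.4 and 82.4 CPM. All 3 libraries with PROTAC FAK degrader 1 lay above every other library of the series, and those with VS-4718 lay just above DMSO, 1 of them far higher than the others. The log2 fold change against DMSO was 0.46 ± 0.054 (SE) with PROTAC FAK degrader 1 (edgeR adjusted p = 1.0e-09) and 0.17 ± 0.054 with VS-4718 (edgeR adjusted p = 0.0128). The VS-4718 value rests on single libraries: it did not pass without VS-4718 replicate 3 (0.078), DMSO replicate 2 (0.15) or DMSO replicate 3 (0.13), nor with libraries thinned to equal depth (0.12).

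The other 5 groups overlapped DMSO or lay close to it. *Rb1cc1* libraries spanned 52.8 to 59.2 CPM with defactinib, 56.1 to 59.2 CPM with GSK2256098 and 53.8 to 62.4 CPM with IN10018. With GSK215 they spanned 63.6 to 64.7 CPM, above all DMSO libraries, with a log2 fold change of 0.10 and a 95% interval of -0.018 to 0.21 (edgeR adjusted p = 0.151). With BSJ-04-0146 they spanned 55.5 to 64.0 CPM. Some processing choices moved these calls for *Rb1cc1*: library totals in place of TMM gave 0.22 with GSK215 and the fit of the 6 libraries alone gave 0.097, which both passed, and removal of GC content and length trends gave 0.12 with BSJ-04-0146 and -0.13 with defactinib, which both passed. In the order of the 8 group means, PROTAC FAK degrader 1 stood apart at 82.7 ± 3.49 CPM, and each of the 7 groups below it overlapped its neighbour. An antisense gene, *4732440D04Rik*, overlaps *Rb1cc1*, and whether reads were assigned by strand is not given in the sources used here.

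*Ulk1* (ENSMUSG00000029512; GRCm38 chr5:110784488-110810097, minus strand) encodes the kinase of that complex. DMSO libraries had 26.4, 27.0 and 26.7 CPM. Those with VS-4718 had 39.3, 40.3 and 37.3 CPM, and those with PROTAC FAK degrader 1 had 35.4, 40.2 and 40.1 CPM. GSK215 gave 37.0, 42.1 and 39.9 CPM and BSJ-04-0146 gave 39.7, 45.6 and 43.1 CPM. These 4 groups overlapped one another and lay above all libraries of the other 4. *Ulk1* rose by 0.54 ± 0.056 on the log2 scale with VS-4718, 0.53 ± 0.058 with PROTAC FAK degrader 1, 0.57 ± 0.058 with GSK215 and 0.68 ± 0.058 with BSJ-04-0146, with edgeR adjusted p of at most 2.4e-10. With GSK2256098 the 3 libraries (30.7, 30.2 and 30.8 CPM) also lay above DMSO, but the log2 fold change of 0.19 (edgeR adjusted p = 0.022) did not pass when any 1 of the 6 libraries was left out (0.18 to 0.20) or with GC and length trends removed (0.12). Defactinib (0.048) and IN10018 (0.070) overlapped DMSO.

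*Becn1* (ENSMUSG00000035086; GRCm38 chr11:101285952-101302286, minus strand) encodes Beclin 1, a subunit of the lipid kinase complex, and overlaps *Cntd1* on the opposite strand. It varied least of the 8 genes, with the highest group mean 1.13-fold the lowest. The DMSO libraries had 108, 112 and 102 CPM and the BSJ-04-0146 libraries had 117, 117 and 119 CPM. BSJ-04-0146 alone lay above every DMSO library and rose past the threshold, by 0.13 ± 0.034 on the log2 scale (edgeR adjusted p = 0.00124). The other 6 drugs gave log2 fold changes of -0.046 to 0.048 with edgeR adjusted p of at least 0.290. Of these, 2 passed under another setting, VS-4718 without DMSO replicate 3 (-0.091) and GSK215 with library totals (0.16). Library totals put the median of all genes at 0.14 with GSK215.

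*Wipi1* (ENSMUSG00000041895; GRCm38 chr11:109573331-109611967, minus strand) encodes a protein that binds the lipid made by that complex. Its DMSO libraries had 46.1, 44.6 and 46.2 CPM. Those with PROTAC FAK degrader 1 had 65.7, 66.0 and 62.9 CPM, those with VS-4718 had 53.2, 52.1 and 51.4 CPM and those with GSK215 had 54.4, 48.4 and 50.2 CPM. None of these 3 groups overlapped DMSO, and PROTAC FAK degrader 1 lay above all other libraries. The rise was 0.51 ± 0.042 on the log2 scale with PROTAC FAK degrader 1 (edgeR adjusted p = 1.2e-13), 0.19 ± 0.042 with VS-4718 (0.000263) and 0.16 ± 0.044 with GSK215 (0.00279). Defactinib libraries, at 42.8, 40.9 and 39.9 CPM, lay below all DMSO libraries and fell by 0.15 (edgeR adjusted p = 0.0111), a call lost without defactinib replicate 3 (-0.13). GSK2256098 libraries, at 42.6 to 44.3 CPM, also lay below all DMSO libraries, but -0.075 did not pass (edgeR adjusted p = 0.302). IN10018 libraries, at 49.4 ± 0.66 CPM, also lay above DMSO, but 0.12 did not pass (edgeR adjusted p = 0.0707), nor did BSJ-04-0146 (0.052) except with library totals (0.16).

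*Map1lc3a* (ENSMUSG00000027602; GRCm38 chr2:155276297-155278073, plus strand) encodes LC3A. DMSO libraries had 17.2, 15.6 and 16.8 CPM. BSJ-04-0146 gave 32.3, 30.5 and 27.9 CPM, GSK215 gave 25.9, 26.2 and 29.5 CPM and VS-4718 gave 25.3, 22.7 and 23.4 CPM. The libraries with PROTAC FAK degrader 1, at 24.7, 21.2 and 20.5 CPM, overlapped VS-4718 and GSK2256098 (21.6 to 21.7 CPM), and all of these groups lay above DMSO. This gene rose most with BSJ-04-0146, by 0.87 ± 0.071 on the log2 scale, then by 0.73 ± 0.071 with GSK215, 0.53 ± 0.070 with VS-4718, 0.43 ± 0.073 with PROTAC FAK degrader 1 and 0.39 ± 0.071 with GSK2256098, with edgeR adjusted p of at most 0.000151. IN10018 gave 0.22 (edgeR adjusted p = 0.0419), which did not pass when any 1 of the 6 libraries was left out (0.18 to 0.24), nor with GC and length trends removed (0.10), with limma-trend (0.18) or with thinned libraries (0.16). Defactinib gave 0.11 and overlapped DMSO.

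*Map1lc3b* (ENSMUSG00000031812; GRCm38 chr8:121590361-121598760, plus strand) encodes LC3B, the form most used to count autophagosomes, and overlaps *Zcchc14* on the opposite strand. It also overlaps the protein-coding gene *Gm20388* on its own strand, where strand cannot separate the reads. DMSO libraries had 56.4, 58.7 and 58.8 CPM. BSJ-04-0146 gave 112, 124 and 116 CPM and PROTAC FAK degrader 1 gave 116, 117 and 107 CPM, ranges that overlap. GSK215 followed at 89.5, 89.5 and 92.0 CPM and VS-4718 at 80.5, 73.5 and 72.0 CPM, and all 4 groups were clear of DMSO. The log2 fold change was 1.02 ± 0.050 with BSJ-04-0146, 0.97 ± 0.049 with PROTAC FAK degrader 1, 0.64 ± 0.051 with GSK215 and 0.38 ± 0.050 with VS-4718, with edgeR adjusted p of at most 7.5e-08. With IN10018 the libraries had 61.7, 62.5 and 72.1 CPM, and 0.17 (edgeR adjusted p = 0.019) did not pass without IN10018 replicate 3 (0.097), without DMSO replicate 1 (0.15) or with thinned libraries (0.14). Defactinib (0.021) and GSK2256098 (-0.011) overlapped DMSO.

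*Gabarapl1* (ENSMUSG00000030161; GRCm38 chr6:129533160-129542346, plus strand) encodes a GABARAP-family protein and overlaps *1700101I11Rik* on the opposite strand and *Gm44243* on its own strand. DMSO libraries had 57.2, 62.4 and 56.3 CPM, against 131, 129 and 127 CPM with PROTAC FAK degrader 1. No other library of the series exceeded 71.1 CPM. BSJ-04-0146 (70.7, 69.8 and 71.1 CPM), IN10018 (67.5, 66.8 and 68.3 CPM) and GSK215 (64.6, 65.8 and 62.8 CPM) formed a lower step above DMSO, and defactinib (49.9, 49.2 and 52.1 CPM) lay below it. *Gabarapl1* rose by 1.14 ± 0.039 on the log2 scale with PROTAC FAK degrader 1 (edgeR adjusted p = 1.5e-25), by 0.27 ± 0.042 with BSJ-04-0146 (1.1e-06), by 0.20 ± 0.041 with IN10018 (0.000658) and by 0.13 ± 0.043 with GSK215 (0.00737), and fell by 0.22 ± 0.042 with defactinib (0.000164). The GSK215 call was lost without DMSO replicate 3 (0.10). VS-4718 (0.066, 95% interval -0.017 to 0.15) and GSK2256098 (-0.044) overlapped DMSO, and VS-4718 passed with library totals (0.10).

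*Sqstm1* (ENSMUSG00000015837; GRCm38 chr11:50199366-50210827, minus strand) encodes the receptor p62, which links ubiquitin-tagged cargo to LC3, and overlaps *Mrnip* on the opposite strand. It had the most reads of the 8, 6234 to 27244 counts per library, and the widest range of group means, 3.78-fold. DMSO libraries had 362, 342 and 355 CPM, and PROTAC FAK degrader 1 gave 1252, 1185 and 1137 CPM. BSJ-04-0146 gave 613, 635 and 602 CPM, IN10018 gave 421, 416 and 440.3 CPM and GSK215 gave 409, 411 and 428 CPM. For this gene PROTAC FAK degrader 1 and BSJ-04-0146 stood apart from each other and from all other groups, and IN10018 and GSK215 overlapped each other above DMSO. The rise was 1.76 ± 0.035 on the log2 scale with PROTAC FAK degrader 1 (edgeR adjusted p = 2.7e-33), 0.81 ± 0.034 with BSJ-04-0146 (5.7e-22), 0.27 ± 0.034 with IN10018 (5.2e-07) and 0.24 ± 0.035 with GSK215 (2.2e-07). Defactinib, at 310, 326 and 310 CPM, fell by 0.16 ± 0.035 (edgeR adjusted p = 0.000496). GSK2256098, at 332, 322 and 320 CPM, fell by 0.12 (edgeR adjusted p = 0.0169), which did not pass without DMSO replicate 1 (-0.11), GSK2256098 replicate 2 (-0.12) or GSK2256098 replicate 3 (-0.11). VS-4718 (-0.028) overlapped DMSO and passed, as lower, with GC and length trends removed (-0.066).

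**Figure D2:**
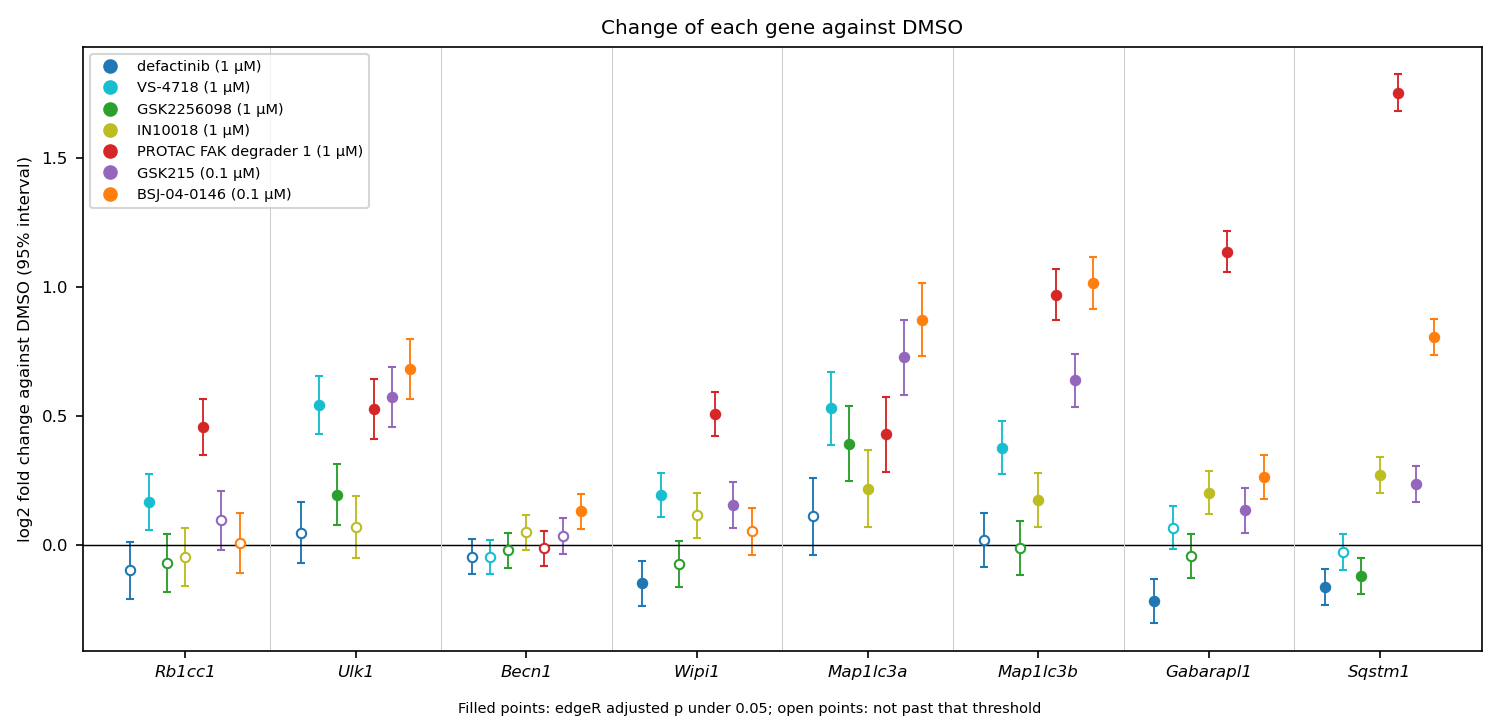
Log2 fold change of each gene against DMSO (vertical axis) with its 95% interval for the 7 drugs, filled where the edgeR adjusted p was under 0.05. *Sqstm1* at 1.76 and *Gabarapl1* at 1.14 with PROTAC FAK degrader 1 lie far above the other drugs, while for *Map1lc3b* BSJ-04-0146 (1.02) and PROTAC FAK degrader 1 (0.97) lie side by side.

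Promoter sequences are shown for the 3 genes that rose most with PROTAC FAK degrader 1. RefSeq windows on GRCm38.p6, from 250 bases before to 50 bases after the start, were at hand for 5 of the 8 genes. They were searched on both strands for the CLEAR E-box core CACGTG, which TFEB, TFE3 and MITF bind, its extended form TCACGTG, which contains the former, the antioxidant response core TGACNNNGC of NRF2 and the amino acid response core TGATGNAA of ATF4, and, chosen after the sequences were seen, for the GC box GGGCGG. The 250 bases before the start are given in the direction of transcription with every match in capitals. They are chr11:50210821-50211070 (minus strand) for *Sqstm1*, chr6:129532942-129533191 (plus strand) for *Gabarapl1* and chr8:121590188-121590437 (plus strand) for *Map1lc3b*.
Sqstm1: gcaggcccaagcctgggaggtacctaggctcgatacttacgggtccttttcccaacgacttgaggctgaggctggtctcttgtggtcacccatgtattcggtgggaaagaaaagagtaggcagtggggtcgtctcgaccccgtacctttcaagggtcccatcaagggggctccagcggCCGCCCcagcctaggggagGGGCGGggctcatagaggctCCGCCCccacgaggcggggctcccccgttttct
Gabarapl1: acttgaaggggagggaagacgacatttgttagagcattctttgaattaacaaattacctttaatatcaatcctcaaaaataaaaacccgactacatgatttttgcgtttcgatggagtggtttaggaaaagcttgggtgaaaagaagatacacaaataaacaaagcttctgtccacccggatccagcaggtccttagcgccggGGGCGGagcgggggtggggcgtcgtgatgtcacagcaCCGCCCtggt
Map1lc3b: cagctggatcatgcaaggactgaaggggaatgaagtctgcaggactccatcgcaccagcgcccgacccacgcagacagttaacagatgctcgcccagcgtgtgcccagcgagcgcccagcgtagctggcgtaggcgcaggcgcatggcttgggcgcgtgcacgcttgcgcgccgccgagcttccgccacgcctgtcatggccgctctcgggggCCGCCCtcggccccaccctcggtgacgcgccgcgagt
All capitals in these stretches mark the GC box or its reverse complement, at 3 places in *Sqstm1*, 2 in *Gabarapl1* and 1 in *Map1lc3b*. That motif was in the windows of all 5 genes, the other 2 being *Ulk1* and *Wipi1*, and in 35.9% of the 32544 distinct windows. It was in at least 1 window of 42 of 63 other autophagy genes. Counts for those 63 are by gene, so they are not on the scale of the shares of windows. CACGTG was in 0 of the 5 windows and in 7.17% of all, TCACGTG in 0 and 3.79%, and TGATGNAA in 0 and 3.91%. Of the same 63 other genes, 10 held CACGTG, 8 TCACGTG, 10 TGACNNNGC and 0 TGATGNAA. TGACNNNGC was in 12.4% of all windows and in 1 of the 5, as TGACTCGGC just after the start of *Map1lc3b*. A match describes letters only, and its absence says nothing of sites outside the window.

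Read drug by drug, the counts stand beside the share of all tested genes that moved the same way. The genes were chosen with earlier results of these data known, so this is a description. With PROTAC FAK degrader 1, 7 of the 8 genes were higher and 0 lower, where 34.1% of all genes were higher and 32.7% lower, and their median log2 fold change was 0.52 against 0.0045 over all genes. With BSJ-04-0146, 6 were higher and 0 lower (27.7% and 26.9% of all genes), with a median of 0.47 against 0.018. With GSK215, 6 were higher and 0 lower (27.4% and 27.2%), with a median of 0.20 against 0.021. *Becn1* was the gene not called with PROTAC FAK degrader 1, *Rb1cc1* and *Wipi1* those with BSJ-04-0146, and *Rb1cc1* and *Becn1* those with GSK215.

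Among the kinase inhibitors, VS-4718 had 5 genes higher and 0 lower (20.4% and 18.9% of all genes), with a median of 0.18. With IN10018, 4 were higher and 0 lower (6.44% and 6.85%), with a median of 0.15, and 2 were left with libraries thinned to equal depth and without DMSO replicate 1 or IN10018 replicate 3. With GSK2256098, 2 were higher and 1 lower (6.36% and 6.09%), although the median was -0.032, and 1 call was left without DMSO replicate 1, GSK2256098 replicate 2 or GSK2256098 replicate 3. With defactinib, 0 were higher and 3 lower (11.4% and 11.0%), with a median of -0.073, the 3 being *Wipi1*, *Gabarapl1* and *Sqstm1*. All 7 comparisons share the same 3 DMSO libraries and are not independent of one another. Library totals in place of TMM moved the median of all genes to 0.14 with GSK215 and 0.13 with BSJ-04-0146. With PROTAC FAK degrader 1 it moved to 0.086, with VS-4718 to 0.043, and in PROTAC FAK degrader 1 against defactinib to 0.0605. Values given under library totals for these comparisons include that shift.

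Drugs were compared directly in 3 pairs given at 1 dose, and the other pairs at the same dose were not compared. PROTAC FAK degrader 1 carries a ligand derived from defactinib, and both were given at 1 μM. It gave higher levels than defactinib in 7 of the 8 genes and lower in 0 (34.9% and 34.0% of all genes). *Sqstm1* averaged 1191 ± 57.8 CPM against 315 ± 9.18 (log2 difference 1.92 ± 0.035) and *Gabarapl1* 129 ± 2.21 against 50.4, with all 3 defactinib libraries between 49.2 and 52.1 (1.36 ± 0.040). *Map1lc3b* followed with a difference of 0.95, *Wipi1* with 0.66, *Rb1cc1* with 0.56, *Ulk1* with 0.48 and *Map1lc3a* with 0.32, and edgeR adjusted p was at most 0.000177 for these 7. For *Becn1* the difference was 0.033 with a 95% interval of -0.036 to 0.10, and it passed with library totals only (0.097).

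VS-4718 and defactinib, both kinase inhibitors at 1 μM, also differed in 7 of the 8 genes, all higher with VS-4718 (18.0% of all genes were higher and 16.0% lower). The differences were 0.50 ± 0.056 on the log2 scale for *Ulk1*, 0.42 ± 0.069 for *Map1lc3a*, 0.36 ± 0.050 for *Map1lc3b* and 0.34 ± 0.043 for *Wipi1*. *Gabarapl1* (0.29), *Rb1cc1* (0.26) and *Sqstm1* (0.14) differed by less, with edgeR adjusted p of at most 0.00193 for all 7. *Becn1* averaged 104 CPM with both drugs, and the 95% interval of its difference ran from -0.068 to 0.068.

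GSK215 and BSJ-04-0146 were compared at 0.1 μM. GSK215 gave lower levels in 4 genes and higher in 0 (12.6% of all genes were lower and 9.88% higher), and 2 calls were left without a filter on low counts, without GSK215 replicate 1 or without any 1 of the BSJ-04-0146 replicates. *Sqstm1* averaged 416 ± 10.3 CPM with GSK215 and 617 ± 16.9 with BSJ-04-0146 (-0.57 ± 0.034, edgeR adjusted p = 1.0e-15), and *Map1lc3b* averaged 90.3 ± 1.45 and 117 ± 5.85 (-0.38 ± 0.049, 2.2e-07). The calls for *Gabarapl1* (-0.13, edgeR adjusted p = 0.0233) and *Becn1* (-0.096, 0.0427) were not secure. *Becn1* did not pass when any 1 of the 6 libraries was left out (-0.10 to -0.082), and *Gabarapl1* passed in that check only without GSK215 replicate 2 (-0.15), with a range of -0.15 to -0.11. *Becn1* also did not pass with library totals, with no filter, with DESeq2 or in the fit of 6 libraries (-0.092 to -0.082), nor did *Gabarapl1* with GC and length trends removed (-0.082), with thinned libraries (-0.11) or with no filter (-0.12). The other 4 genes did not pass, with 95% intervals of -0.22 to 0.0070 for *Ulk1*, -0.29 to -0.0076 for *Map1lc3a*, 0.011 to 0.20 for *Wipi1* and -0.030 to 0.21 for *Rb1cc1*. *Wipi1* passed without GSK215 replicate 2 (0.14) or with GC and length trends removed (0.13), and *Map1lc3a* without GSK215 replicate 3 (-0.21). PROTAC FAK degrader 1 was given at a higher dose than these PROTACs and was not compared with them.

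**Figure D3:**
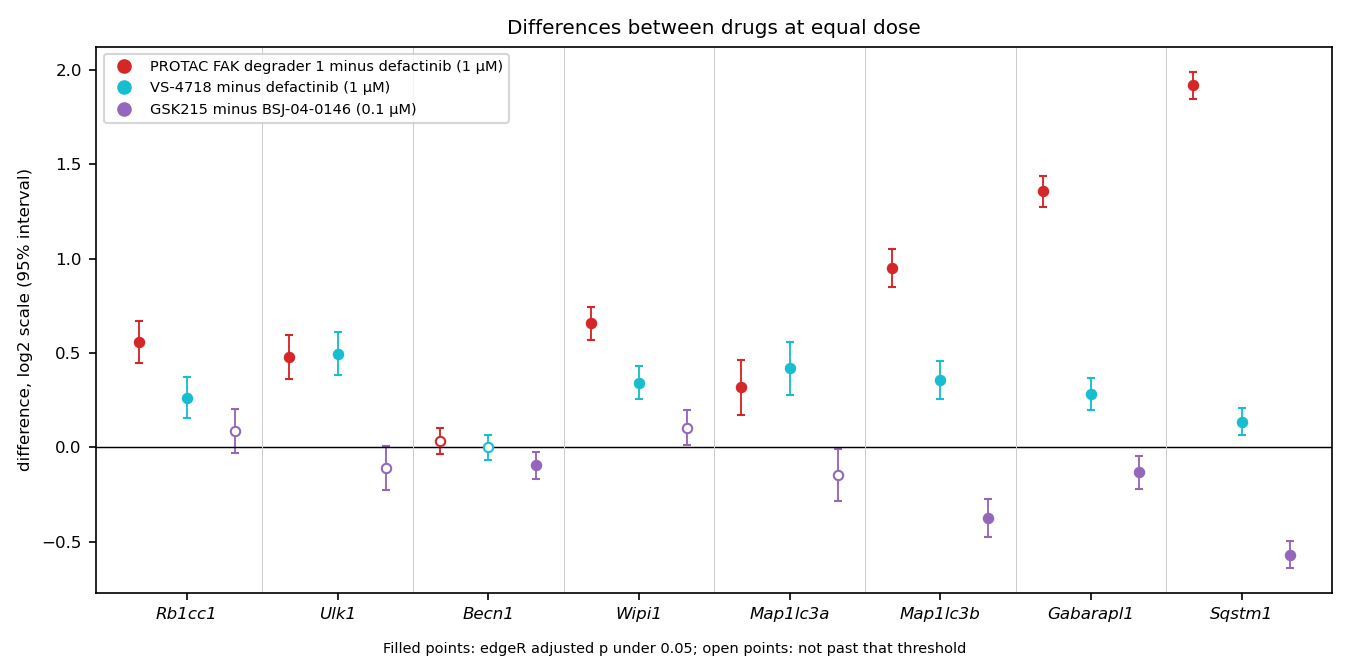
Difference between drugs given at the same dose (vertical axis, log2 scale, with 95% interval) for each gene, filled where the edgeR adjusted p was under 0.05. PROTAC FAK degrader 1 exceeds defactinib by 1.92 for *Sqstm1*, whereas GSK215 lies 0.57 below BSJ-04-0146 for that gene, a difference of -0.57.

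Group means of the 8 genes followed more than one order. Across the 8 group means of log2 CPM, *Gabarapl1* and *Sqstm1* had a Pearson r of 0.97, *Rb1cc1* and *Wipi1* 0.95, and *Ulk1* and *Map1lc3a* 0.93. *Rb1cc1* and *Map1lc3a* had 0.25, and *Becn1* had at most 0.58 with any of the others. The points share their libraries and the comparison is a description over 8 groups. *Sqstm1*, *Gabarapl1*, *Rb1cc1* and *Wipi1* stood highest with PROTAC FAK degrader 1, and *Ulk1*, *Map1lc3a*, *Map1lc3b* and *Becn1* stood highest with BSJ-04-0146, in the case of *Ulk1*, *Map1lc3a* and *Map1lc3b* with overlap of the next group.

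Among 9806 genes with a mean of at least 5 CPM, the 2 whose group means were most like each gene were listed by the same measure. They were *Tacc1* and *Ube4b* for *Rb1cc1* (r = 0.98 for both), *Numb* and *Ptpn3* for *Ulk1* (0.99 and 0.99), *Fis1* and *Tceal9* for *Becn1* (0.95 and 0.95), and *Dnajc30* and *Mrpl10* for *Wipi1* (0.98 and 0.97). For *Map1lc3a* they were *Pias3* and *Tmcc2* (0.97 and 0.97), for *Gabarapl1* *Arhgef10* and *Pold4* (0.995 and 0.995), and for *Sqstm1* *Sirt2* and *Plcg1* (0.997 and 0.996). For *Map1lc3b* the first was *Slc25a29* (0.997).

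A list of 72 other autophagy genes, all of them tested, places the 8 within the pathway. It too was chosen with earlier results of these data known. With PROTAC FAK degrader 1, 46 were higher and 14 lower (34.1% and 32.7% of all genes), with a median log2 fold change of 0.30 against 0.0045 over all genes. BSJ-04-0146 had 37 higher and 15 lower (27.7% and 26.9% of all genes), with a median of 0.14 against 0.018. GSK215 had 33 and 19 (27.4% and 27.2%), with 0.099 against 0.021, and VS-4718 had 29 and 12 (20.4% and 18.9%), with 0.058 against 0.0048. Defactinib had 6 and 10 (11.4% and 11.0% of all genes), GSK2256098 had 5 and 9 (6.36% and 6.09%) and IN10018 had 13 and 2 (6.44% and 6.85%). In these last 3, leaving out 1 library brought the number of calls from 16 down to 10 (without DMSO replicate 1), from 14 to 8 or 9 (without any 1 of the DMSO replicates or GSK2256098 replicate 1 or 3) and from 15 to 9 (without IN10018 replicate 1). Without 21 upstream control genes, 51 remained, beside the same shares of all genes. Of these, 31 were higher and 9 lower with PROTAC FAK degrader 1 (median 0.26), and 27 and 8 with BSJ-04-0146 (0.15). GSK215 had 22 and 12 (0.10) and VS-4718 had 26 and 6 (0.12). Defactinib had 5 and 6, GSK2256098 had 5 and 4 and IN10018 had 8 and 0.

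The partners of *Rb1cc1* and *Ulk1* in the initiation complex were looked at after their values were known. *Atg13* and *Ulk2* rose with PROTAC FAK degrader 1 (1.10 ± 0.048 and 1.00 ± 0.062 on the log2 scale), BSJ-04-0146 (0.59 and 0.45), GSK215 (0.40 and 0.43) and VS-4718 (0.28 and 0.40), whereas *Atg101* rose with VS-4718 only (0.28), at 0.0057 to 0.11 with the PROTACs. Of the remaining GABARAP genes, *Gabarap* rose with every drug but defactinib, from 0.11 with GSK2256098 to 1.15 with BSJ-04-0146. *Gabarapl2* rose with none and fell with GSK2256098 (-0.17) and GSK215 (-0.12). By role, PROTAC FAK degrader 1 raised 8 and lowered 3 of 12 further cargo receptors and adaptors, raised 8 and lowered 1 of 11 conjugation enzymes, raised 5 and lowered 1 of 7 lipid kinase complex genes, raised 4 and lowered 0 of 7 closure and fusion genes, raised 15 and lowered 5 of 21 upstream control genes, and raised 3 and lowered 4 of 9 membrane supply and lipid binding genes (median 0.035), where 34.1% of all genes were higher and 32.7% lower.

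By the naming rule, which takes the 2 largest called changes in each direction whose libraries do not overlap DMSO, *Calcoco1*, which encodes a receptor for autophagy of the endoplasmic reticulum, led the rises with PROTAC FAK degrader 1 (2.08), BSJ-04-0146 (1.35), GSK215 (1.25) and VS-4718 (0.64). *Tecpr1*, whose product acts in fusion with the lysosome, came second with BSJ-04-0146 (1.28) and GSK215 (0.88), *Atg10* with PROTAC FAK degrader 1 (1.88) and *Wdr45* with VS-4718 (0.49). *Ddit4*, which encodes an inhibitor of mTORC1 signalling, and *Bnip3*, which encodes a mitophagy receptor, led the falls with VS-4718 (-2.11 and -1.30), GSK215 (-1.75 and -1.35), BSJ-04-0146 (-1.19 and -1.48) and, for *Ddit4*, GSK2256098 (-0.95, with *Sesn2* at -0.49). Outside the rule, *Bnip3* also fell with GSK2256098 (-0.46), and with PROTAC FAK degrader 1 *Ddit4* and *Bnip3* rose (1.75 and 1.14). They led the rises with IN10018 (0.78 and 0.69), where *Deptor* (-0.14) and *Mtor* (-0.12) led the falls. With PROTAC FAK degrader 1 *Wdfy3* (-0.58) and *Deptor* (-0.53) fell most. Defactinib raised *Tex264* (0.22) and *Atg9b* (0.22) and lowered *Ddit4* (-0.53) and *Bnip3* (-0.40), and GSK2256098 raised *Atg9b* (0.25) and *Wdfy3* (0.17).

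**Figure D4:**
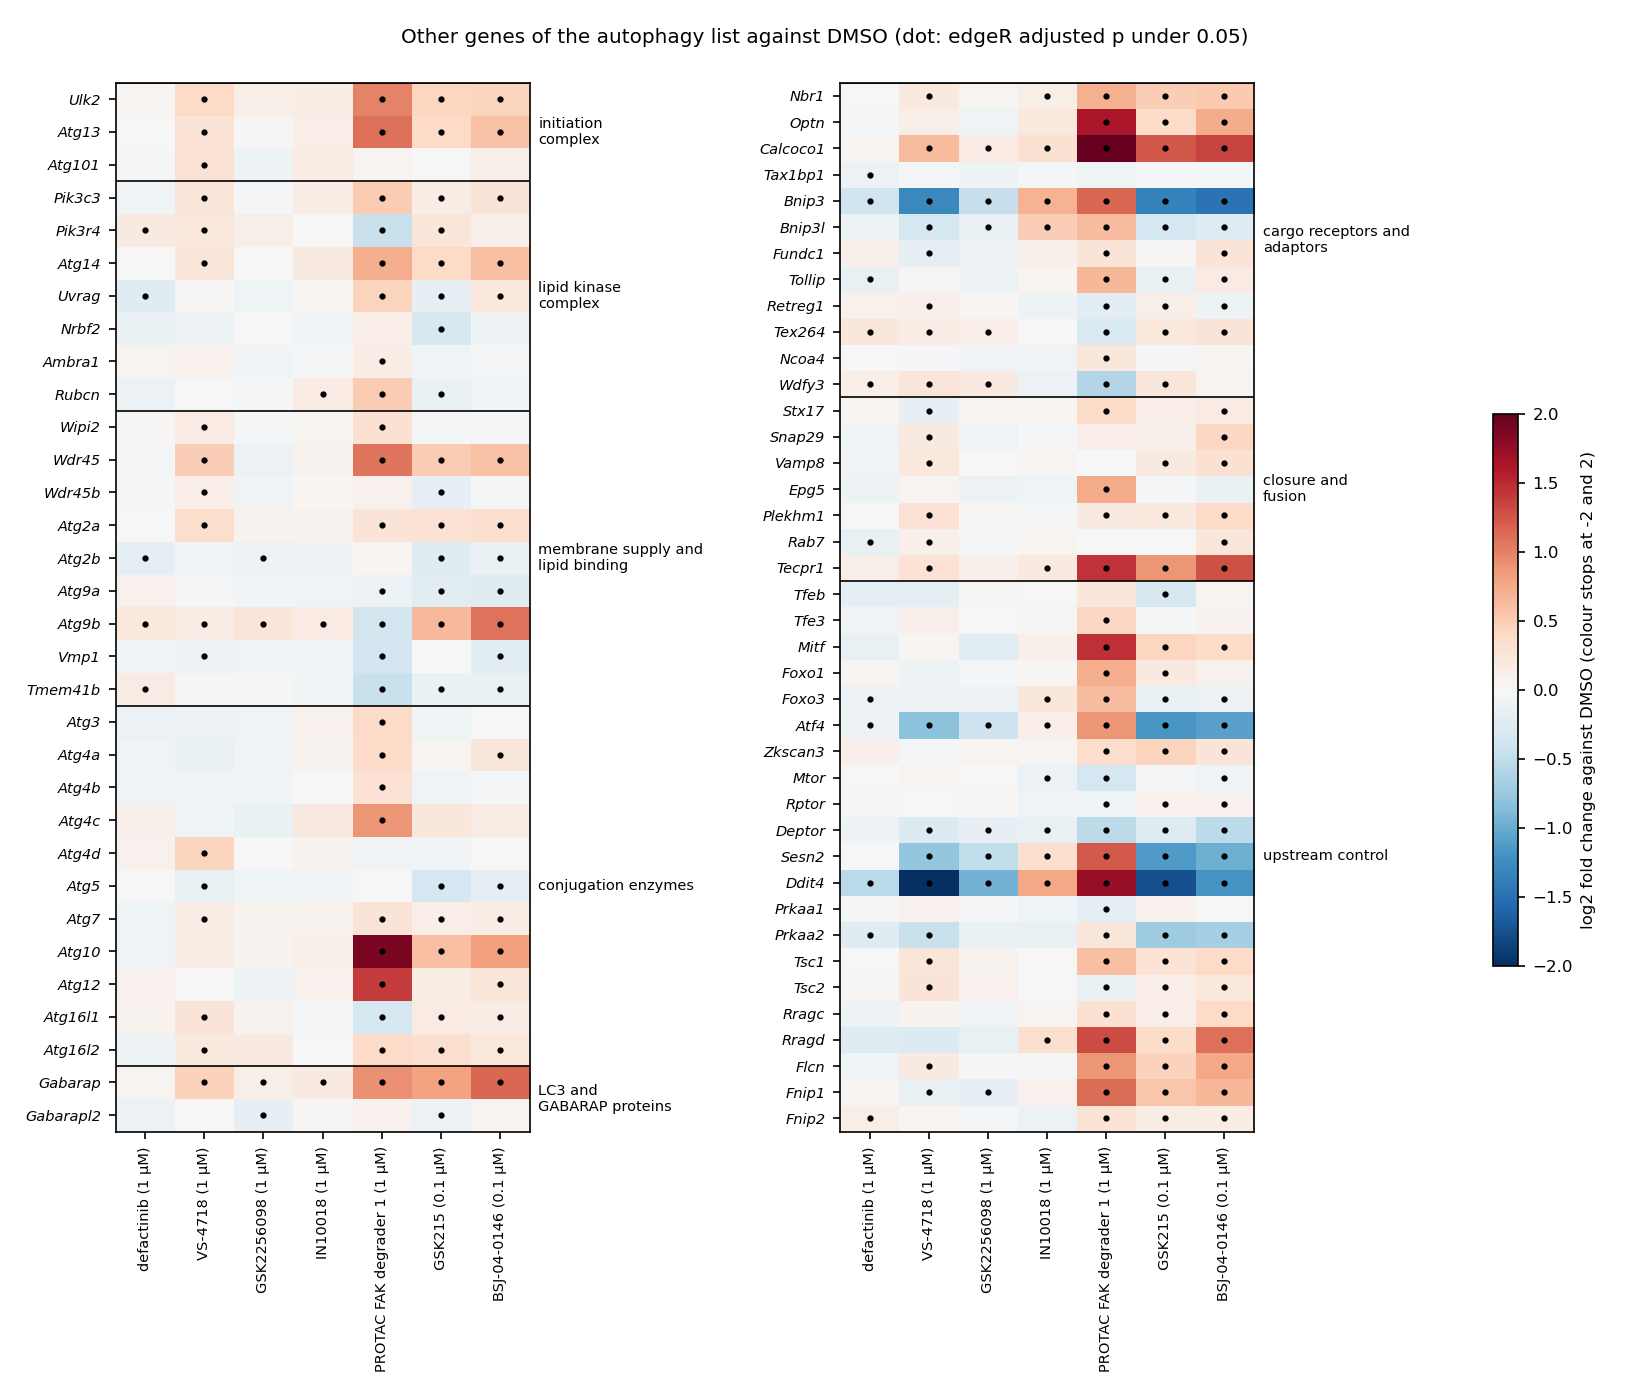
Log2 fold change against DMSO (colour, which stops at -2 and 2) of the 72 other autophagy genes in rows, grouped by role, for the 7 drugs in columns, with a dot where the edgeR adjusted p was under 0.05. The column of PROTAC FAK degrader 1 holds 46 higher and 14 lower calls (34.1% and 32.7% of all tested genes were higher and lower). The rows of *Ddit4* and *Bnip3* are lower with VS-4718, GSK215, BSJ-04-0146, defactinib and GSK2256098 and higher with IN10018 and PROTAC FAK degrader 1.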

How the data were processed

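The deposited table holds raw counts, unnormalized, of the reads that the authors assigned to each gene in 24 libraries of poly(A)-selected RNA. The submitters' processing notes name Trimmomatic 0.36, STAR 2.5.2b, featureCounts and Subread 1.5.2 and the build GRCm38. The annotation release and strand setting are not given in the sources used here. Columns were matched to samples by the library numbers in the labels. Coordinates and lengths come from GENCODE M21, which held 48970 of the 49315 identifiers.

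Counts were tested in R 4.3.3 with edgeR 4.0.16 (TMM scaling, filterByExpr, the quasi-likelihood functions glmQLFit and glmQLFTest, a coefficient for each group and 16 residual degrees of freedom, two-sided, Benjamini-Hochberg adjustment over 16070 genes, threshold 0.05). The code was tested on simulated data. The SE of a log2 fold change is its size over the root of F. Depth was 14472462 to 27449516 counts per library, and each of the 8 genes had at least 380 counts in every library.

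The 8 genes, the list of 72 others and the markers were chosen with earlier results of these data known. Named were the 8 genes, the 2 genes most like each, *Ptk2*, *Ptk2b* and *Nf2*, and for each drug the 2 largest called changes of list genes in each direction without overlap with DMSO; a few items that this rule or the marker lists name are not reported here. Alternatives were library totals, no filter, a replicate block, thinning to 14472462 counts, removal of GC content and length trends (16019 genes), limma-trend (limma 3.58.1) on log2(CPM + 4), DESeq2 1.42.0, the 6 libraries of a comparison alone, and leaving out each library in turn. The length of the longest transcript was an alternative for levels per kb, added after seeing the data. Figures were drawn with matplotlib 3.10.9.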

Additional observations from a re-analysis of the deposited data

How the results depend on the processing

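Of 80 values, 8 genes in 10 comparisons, 51 kept their direction and their side of the threshold under all 8 alternatives and with every library left out in turn. Over the 8 alternatives, 602 of 640 values did so, 13 lost the call, 10 gained it and 15 changed sign. With a library left out, 429 of 480 did so, 33 lost the call, 3 gained it and 15 changed sign. Where not stated otherwise the cause was not tested, and every value that changed sign was short of the threshold.

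Library totals in place of TMM turned *Sqstm1* with VS-4718 to 0.0105, *Map1lc3b* with GSK2256098 to 0.0017 and *Becn1* with PROTAC FAK degrader 1 to 0.0685. Removing GC content and length trends turned *Ulk1* with defactinib to -0.0110, *Rb1cc1* with IN10018 to 0.0475, *Rb1cc1* in GSK215 against BSJ-04-0146 to -0.0305 and *Becn1* with PROTAC FAK degrader 1 to 8.6e-06. Thinning gave 0.0077 for *Becn1* with PROTAC FAK degrader 1 and -0.0041 for *Rb1cc1* with BSJ-04-0146, for which no filter gave -0.0176 and DESeq2 -0.0031. *Becn1* in VS-4718 against defactinib was -2.0e-04 with no filter, -3.4e-04 with limma-trend, -0.0047 with DESeq2 and -0.0022 in the fit of 6 libraries. Of the 8 genes, thinning left 2 past the threshold with IN10018, and no filter, which adds tests, left 2 in GSK215 against BSJ-04-0146.

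With a library left out, which leaves fewer samples, the calls among the 8 genes ranged from 1 to 2 with GSK2256098, from 2 to 3 with IN10018 and from 2 to 4 in GSK215 against BSJ-04-0146. Calls among the 72 other genes ranged from 10 to 15 with defactinib, from 8 to 10 with GSK2256098 and from 9 to 15 with IN10018. *Map1lc3b* ranged from -0.0111 to 0.0333 with defactinib and from -0.0456 to 0.0064 with GSK2256098. *Becn1* ranged from -0.0581 to 0.0124 with GSK2256098, from -0.0463 to 0.0241 with PROTAC FAK degrader 1, from -9.6e-04 to 0.0696 with GSK215 and from -0.0272 to 0.0069 in VS-4718 against defactinib. *Gabarapl1* ranged from -0.0929 to 0.0039 with GSK2256098, and *Rb1cc1* from -0.101 to 0.0046 with IN10018 and from -0.0363 to 0.061 with BSJ-04-0146.

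Libraries with the same replicate number did not deviate together (median r = -0.0049 over 84 pairs, against 0.0041 over 168 pairs of unequal numbers). With the replicate block, the 8 genes had 3 calls with defactinib, 5 with VS-4718, 3 with GSK2256098, 4 with IN10018, 7 with PROTAC FAK degrader 1 and 6 each with GSK215 and BSJ-04-0146, as without it, and it changed no call of the 8 genes in the 10 comparisons.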
